A study of Mus musculus with 6 samples.

Results

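The transcripts of 34 genes of glycolysis, glycogen storage and lactate handling were followed in C2C12 myotubes with and without the cytokine TWEAK. The genes were chosen by name, and they appear in 35 of the 49592 rows of the deposited expression table, because the name Aldoa stands on 2 rows. C2C12 is a single established mouse myoblast line whose cells fuse into multinucleated myotubes when serum is lowered, and its cultures lack the nerve and blood supply of a muscle. All 6 libraries came from cells grown with 10% fetal bovine serum, then kept for 3 days in medium with 2% horse serum, and the labels name no genetic change in either group. The TWEAK group (3 libraries) then received 10 ng/ml of the protein for 12 h, and the untreated group (3 libraries) received none. TWEAK is a member of the tumour necrosis factor family that signals through the receptor Fn14 and NF-kB, and the study asked how it promotes fusion of myoblasts into myotubes.

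Glycolysis splits glucose into pyruvate, and muscle runs it both from imported glucose and from its own glycogen. During muscle differentiation several steps change from an isozyme found in most tissues to a muscle-type isozyme made by a separate gene: Pfkm for phosphofructokinase, Eno3 for enolase, Pgam2 for phosphoglycerate mutase and Pygm for glycogen phosphorylase. Pyruvate is then reduced to lactate and exported, or enters mitochondria through the pyruvate dehydrogenase complex, which the pyruvate dehydrogenase kinases switch off.

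Each library's expression is given as FPKM, the fragments of a gene scaled to its length in kilobases and to the library's depth, so levels of different genes can be set side by side. The 6 libraries held 29963326 to 40899725 reads, recovered from the FPKM values. The libraries carry trial numbers 1 to 3, but no label says whether each trial was its own culture. The p-values therefore describe how far these libraries scatter, which may be technical. A gene was tested if its mean was at least 0.5 FPKM, by limma on log2(FPKM + 1), and a gene rose or fell if its p-value, adjusted by the Benjamini-Hochberg method over all 12770 tested genes, was under 0.05. A second limma fit added the trial number as a block, because libraries of the same trial deviated together, and its adjusted p is given for the genes of the set whose call it changed. Log2 differences use log2(FPKM + 1) and subtract the untreated from the TWEAK mean, and folds are ratios of mean FPKM. Myotube markers were abundant in both groups, with 12 of 12 tested. Of other cell types, summed leukocyte markers reached 1.51 to 1.80 FPKM with TWEAK and 1.66 to 1.77 FPKM untreated, the pan-leukocyte marker Ptprc was at most 0.00573 FPKM, and the summed adipocyte and endothelial markers were at most 0.214 FPKM in any library. In cultures measured in bulk, fewer cells of a kind and less RNA per cell cannot be told apart.

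After 12 h of TWEAK, 3 of the 34 tested rows fell and 0 rose: glycogen synthase Gys1, the muscle-type phosphoglycerate mutase Pgam2, and Phka1, the muscle-type regulatory subunit of phosphorylase kinase. The falls were 1.28-fold to 1.45-fold. Most of the pathway did not pass the test, and log2 differences ran from -0.55 to 0.24 with a median of -0.03, beside a median of 0.01 over all tested genes. Over all tested genes 15.1% passed in either direction and 6.10% fell, so 3 of 34 is near the background. In numbers, 1147 of the 12770 tested genes rose and 779 fell with group alone, the background for the gene lists below. With the trial as a block, 8 rows fell and 2 rose, against 12.5% and 15.4% of all tested genes. The 2 that rose, Pfkl and Pgam1, are not the muscle-type forms of their steps. In the authors' deposited table, whose fit held more libraries than these 6, 8 of the 35 rows were lower at an adjusted p under 0.05 and 0 were higher, beside 9.38% of 15293 genes lower and 11.2% higher.

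**Figure D1:**
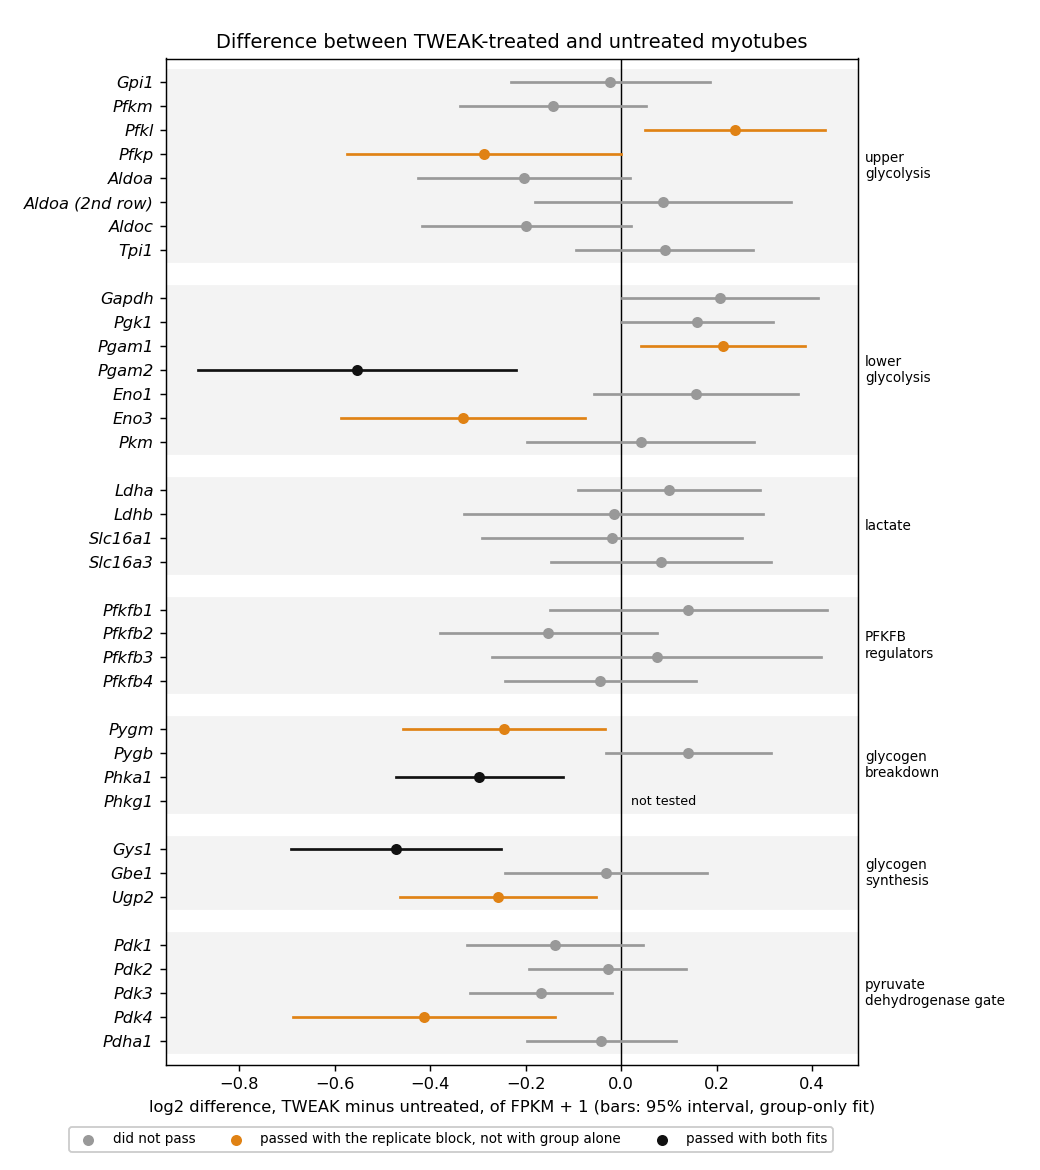
Log2 difference between TWEAK-treated and untreated myotubes (horizontal axis, log2 of FPKM + 1) for each row of the gene set, grouped by role (vertical axis); points are limma estimates from 3 libraries a group and bars are 95% intervals. Pgam2, Gys1 and Phka1, in black, passed with and without the trial as a block, and the 7 orange rows passed with the block and not with group alone.

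The stretches of 250 bases before the start of transcription are shown for the 3 genes that fell and for Pgam1, the counterpart of Pgam2. They come from RefSeq promoter windows of build GRCm38.p6, a different build from the GRCm39 gene positions given further on. The Pgam2 window is chr11:5803797-5804046 on the minus strand, that of Pgam1 chr19:41911621-41911870 on the plus strand, that of Gys1 chr7:45434589-45434838 on the plus strand and that of Phka1 chrX:102644247-102644496 on the minus strand. Each is written 5′ to 3′ with motif matches in capitals.
Pgam2: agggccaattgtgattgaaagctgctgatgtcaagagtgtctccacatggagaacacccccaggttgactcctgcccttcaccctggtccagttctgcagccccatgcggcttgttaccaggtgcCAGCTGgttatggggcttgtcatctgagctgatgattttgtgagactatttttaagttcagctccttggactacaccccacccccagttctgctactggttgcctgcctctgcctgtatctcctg
Pgam1: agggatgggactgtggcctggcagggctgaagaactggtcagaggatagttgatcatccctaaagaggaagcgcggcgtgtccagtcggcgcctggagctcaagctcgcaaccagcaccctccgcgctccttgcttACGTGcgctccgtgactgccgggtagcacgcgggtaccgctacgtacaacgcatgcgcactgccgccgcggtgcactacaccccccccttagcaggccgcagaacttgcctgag
Gys1: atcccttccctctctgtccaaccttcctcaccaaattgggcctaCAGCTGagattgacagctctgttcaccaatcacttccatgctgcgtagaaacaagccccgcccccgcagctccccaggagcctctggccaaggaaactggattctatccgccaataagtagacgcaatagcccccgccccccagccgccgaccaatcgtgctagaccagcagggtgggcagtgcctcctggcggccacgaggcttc
Phka1: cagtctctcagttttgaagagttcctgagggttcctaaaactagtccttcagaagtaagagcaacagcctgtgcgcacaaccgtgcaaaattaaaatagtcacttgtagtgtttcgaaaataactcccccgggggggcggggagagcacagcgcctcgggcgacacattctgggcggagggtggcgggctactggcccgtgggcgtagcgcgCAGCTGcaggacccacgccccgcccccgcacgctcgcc
In Pgam2, Gys1 and Phka1 the capitals mark CAGCTG, an E-box sequence of the kind bound by myogenic factors such as MyoD, at 125, 206 and 38 bases before the start. In Pgam1 they mark ACGTG, the core of the hypoxia response element, at 114 bases before the start, and this window holds no CAGCTG.

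Both strands were searched in the 250-base windows of all 34 genes, some of which have several start sites and so 53 windows in all. CAGCTG was found in 10 of these 53 windows, in Gpi1, Gys1, Pdk1, Pfkfb1, Pfkfb2, Pgam2, Phka1, Pkm, Pygm and Ugp2, and in 13.0% of all 32851 windows of the same length. ACGTG was found in 19 of 53 windows and in 16.6% of all windows. Its 15 genes were Aldoa, Ldha, Pdk2, Pdk3, Pfkfb2, Pfkfb3, Pfkm, Pgam1, Pgk1, Pkm, Pygb, Pygm, Slc16a1, Slc16a3 and Ugp2. Among the muscle-type genes of the isozyme steps, CAGCTG was in Pgam2 and Pygm and not in Pfkm or Eno3. Among the other forms, CAGCTG was not in Pfkl, Pfkp, Eno1, Pgam1 or Pygb. ACGTG was in Pfkm and Pygm and also in Pgam1 and Pygb, so it occurred in forms of both kinds. Whether either motif separates muscle-type from other forms was not tested. A MEF2 consensus was found in 0 of 53 windows and in 0.508% of all, and an NF-kB consensus in 4 of 53 and in 7.25% of all. None of these motifs contains another. A match describes letters only, and the binding of any factor was not measured.

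Phosphoglycerate mutase moves the phosphate group of 3-phosphoglycerate, and the log2 differences of its isozyme genes had opposite signs. Pgam2 (GRCm39 chr11:5751640-5753733) stood at 96.1, 79.7 and 127 FPKM in TWEAK trials 1 to 3 and at 145, 135 and 159 FPKM in the untreated libraries. Every TWEAK library was below every untreated one. The mean fell from 146 ± 12.5 to 101 ± 23.9 FPKM (SD, n = 3), a log2 difference of -0.55 with a standard error of 0.15 (limma adjusted p = 0.0359). Pgam1 (GRCm39 chr19:41900362-41907099), the form of most tissues, was at 44.2, 49.1 and 46.6 FPKM with TWEAK and at 41.6, 42.1 and 36.6 FPKM without, again with no overlap. Its log2 difference of 0.21 (95% interval 0.04 to 0.38) did not pass with group alone (limma adjusted p = 0.0942) and passed with the trial as a block (limma adjusted p = 0.0303). Pgam2 thus made up 68.5%, 61.9% and 73.1% of the summed Pgam2 and Pgam1 FPKM with TWEAK, and 77.7%, 76.2% and 81.3% without. The Pgam2 share differed by -10.5 percentage points (TWEAK minus untreated), and the differences within trials were -9.16, -14.3 and -8.18 points.

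Enolase, which makes phosphoenolpyruvate, had the same arrangement at a higher level. Eno3 (GRCm39 chr11:70548028-70553339), the muscle form, was at 754, 676 and 880 FPKM with TWEAK and at 961, 1020 and 913 FPKM without. The groups did not overlap, although the TWEAK and untreated libraries of trial 3 lay close, at a within-trial log2 ratio of -0.05. The Eno3 log2 difference was -0.33 with a standard error of 0.11, which did not pass with group alone (limma adjusted p = 0.0822) and passed with the trial as a block (limma adjusted p = 0.0403). Eno1 (GRCm39 chr4:150321178-150333336), the form of most tissues, was at 428, 441 and 418 FPKM with TWEAK and at 393, 425 and 341 FPKM without. The Eno1 groups overlapped, and the difference of 0.16 (95% interval -0.06 to 0.37) did not pass (limma adjusted p = 0.302). The Eno3 share of the pair was 63.8%, 60.5% and 67.8% with TWEAK against 71.0%, 70.6% and 72.8% without, a mean difference of -7.44 points. Eno1b, a near-identical copy of Eno1 that may share its reads, was at 101 ± 4.11 FPKM with TWEAK and 84.5 ± 11.1 FPKM without (SD, n = 3). Eno1b passed with the trial as a block (limma adjusted p = 0.0215) and not with group alone (0.101).

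Phosphofructokinase sets the pace of upper glycolysis and forms tetramers from 3 subunit genes. Pfkm (GRCm39 chr15:97990470-98030332), the muscle subunit, was at 219, 197 and 242 FPKM with TWEAK and at 240, 248 and 236 FPKM without, and the groups overlapped. The Pfkm difference of -0.14 (95% interval -0.34 to 0.05) did not pass (limma adjusted p = 0.303). Pfkl (GRCm39 chr10:77822781-77845917), the liver subunit, was at 56.6, 55.9 and 53.0 FPKM with TWEAK and at 48.0, 50.9 and 41.3 FPKM without, with every TWEAK library higher. Pfkl passed with the trial as a block (limma adjusted p = 0.0156) and not with group alone (0.0878), with a log2 difference of 0.24. The platelet subunit Pfkp (GRCm39 chr13:6629804-6698813) went the other way, at 8.0, 6.65 and 5.83 FPKM with TWEAK and 8.75, 9.81 and 7.09 FPKM without. Its groups overlapped, but the TWEAK library was lower in 3 of 3 trials, and the log2 difference of -0.29 passed with the block (limma adjusted p = 0.0162) and not with group alone (0.166). Of the summed Pfkl and Pfkp FPKM, Pfkl held 89.0% ± 1.27 with TWEAK and 84.6% ± 0.751 without (SD, n = 3). The Pfkm share of all 3 genes was 77.2%, 75.9% and 80.4% with TWEAK and 80.9%, 80.3% and 83.0% without, with overlap between the groups.

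Glycogen phosphorylase frees glucose units from glycogen. Pygm (GRCm39 chr19:6434429-6448489), the muscle form, was at 93.2, 73.7 and 88.7 FPKM with TWEAK and at 106, 101 and 95.5 FPKM without. All 3 TWEAK libraries were lower, and the log2 difference of -0.24 passed with the trial as a block (limma adjusted p = 0.027) and not with group alone (0.114). Pygb (GRCm39 chr2:150628655-150673678), the brain form, was at 13.4, 14.2 and 13.7 FPKM with TWEAK and at 11.3, 13.5 and 12.5 FPKM without. Its groups overlapped, and the difference of 0.14 (95% interval -0.03 to 0.31) did not pass with either fit (limma adjusted p = 0.254). The Pygm share of the pair was 87.4%, 83.9% and 86.6% with TWEAK and 90.4%, 88.2% and 88.4% without.

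At all 4 steps the muscle-type share of the transcripts was lower with TWEAK in 3 of 3 trials. The mean differences were -10.5 points for phosphoglycerate mutase, -7.44 for enolase, -3.54 for phosphofructokinase and -3.03 for glycogen phosphorylase. The groups did not overlap at 3 steps, where the exact two-sided permutation test gave p = 0.1, the smallest that 20 assignments allow (0.133 after adjustment over the 4 shares). For phosphofructokinase the exact permutation test gave p = 0.2. With flips of sign within trials the smallest p is 0.25, so neither test can take a single share past 0.05 with these libraries. Without TWEAK trial 2 the Pygm share difference was -1.99 points, against -3.03 with all libraries. Of the 4 muscle-type genes, 4 had log2 differences below 0 with a median of -0.29, and of the other 5 genes, 4 had differences above 0 with a median of 0.16. Muscle-type forms still made up most of the summed FPKM of the genes compared at each step in every library. The lowest share was the 60.5% of Eno3 in TWEAK trial 2. This share left out the enolase genes Eno1b and Eno2, at 104 and 26.8 FPKM in that library.

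**Figure D2:**
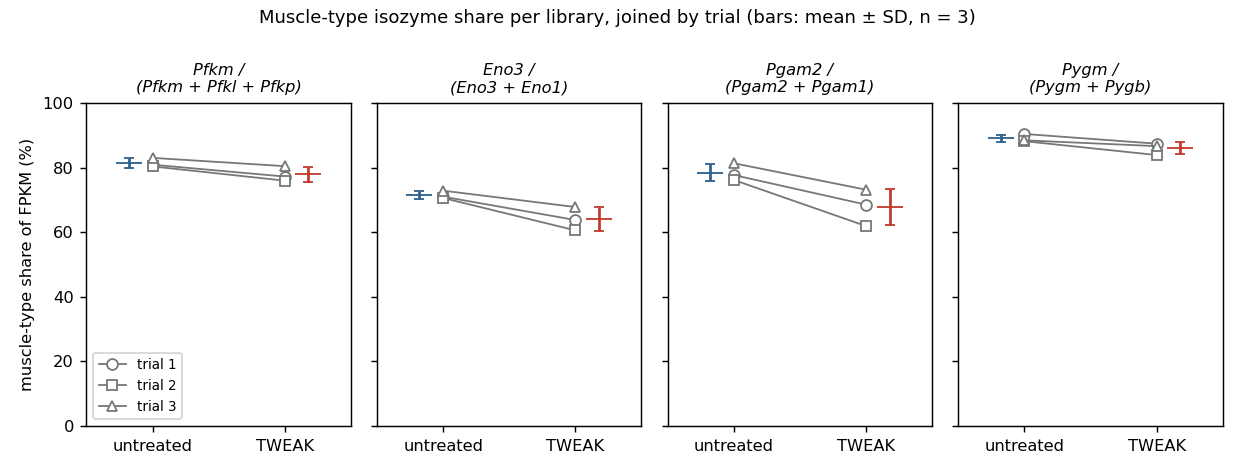
Share of the muscle-type gene in the summed FPKM of the genes compared at its step (vertical axis, percent) in untreated and TWEAK-treated libraries. Lines join libraries of the same trial, and bars beside them give the mean ± SD of 3 libraries. All 12 lines slope down from untreated to TWEAK, steepest for Pgam2, whose share goes from a mean of 78.4% to 67.9%.

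Other markers of muscle and of dividing cells moved in the same libraries. Of the 12 myotube markers, 3 fell and 0 rose, namely embryonic myosin Myh3, Z-disc actinin Actn2 and titin Ttn. Myh3 fell from 1028 ± 126 to 615 ± 79.5 FPKM (SD, n = 3; limma adjusted p = 0.00615), Actn2 from 55.5 to 33.3 FPKM and Ttn from 22.3 to 13.7 FPKM. Every TWEAK library was below every untreated one for 4 of the 12 markers and above for 3. These 3 were the myogenic factor Myog, at 826 FPKM with TWEAK and 706 FPKM without, the fusion protein gene Mymk and desmin (Des), and they did not pass with either fit. The summed FPKM of these markers was 16498 to 19049 with TWEAK and 18789 to 20098 without, which overlap. Of 10 proliferation markers, 9 rose and 0 fell, and their sum was 209 to 292 FPKM with TWEAK against 109 to 153 FPKM without. Cyclin A2 (Ccna2) was among these, at 12.2 FPKM with TWEAK against 7.0 FPKM without (limma adjusted p = 0.00627), and survivin (Birc5) rose 2.07-fold from 2.72 to 5.64 FPKM (limma adjusted p = 0.00642). The part of either in the isozyme differences was not tested.

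The remaining glycolytic genes did not pass with either fit. Gpi1, which makes fructose 6-phosphate, was at 149 FPKM with TWEAK and 152 FPKM without. Aldolase Aldoa was the most abundant of the genes followed, at 1024, 998 and 1165 FPKM with TWEAK and 1217, 1245 and 1200 FPKM without. All 3 TWEAK libraries were below the untreated ones, but the Aldoa log2 difference of -0.20 (95% interval -0.43 to 0.02) did not pass (limma adjusted p = 0.2), whereas the authors' deposited table gives -0.20 with an adjusted p of 0.0127. The second Aldoa row (ENSMUSG00000114515.3), beside the first on chromosome 7, stood at 1.21 FPKM with TWEAK and 1.10 FPKM without. Aldoc, the brain aldolase, was at 0.763 and 1.02 FPKM, so that Aldoa gave 99.9% of the Aldoa and Aldoc sum in both groups. Triose phosphate isomerase Tpi1 was at 586 and 550 FPKM.

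In the lower pathway, Gapdh, Pgk1 and Pkm had log2 differences above 0 that did not pass. Gapdh, often used as a reference gene, was at 469, 467 and 479 FPKM with TWEAK and at 438, 428 and 364 FPKM without, so that every TWEAK library was higher. Its log2 difference was 0.21 (95% interval 0.00 to 0.41; limma adjusted p = 0.161). Phosphoglycerate kinase Pgk1 was at 248, 257 and 263 FPKM against 230, 237 and 220 FPKM, likewise without overlap (limma adjusted p = 0.164). Pyruvate kinase Pkm was at 988 ± 35.8 and 964 ± 105 FPKM (SD, n = 3), and its M1 and M2 splice forms cannot be told apart at the level of the gene. Gapdh, Pgam1, Ldha and Eno1 have many processed copies in the genome, so their levels are uncertain where reads could have been split between copies.

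None of the 4 lactate genes passed with either fit. Lactate dehydrogenase Ldha was at 520, 537 and 571 FPKM with TWEAK and 496, 539 and 483 FPKM without, a log2 difference of 0.10 (95% interval -0.09 to 0.29; limma adjusted p = 0.465). The heart form Ldhb was at 14.5 ± 2.85 and 14.6 ± 2.19 FPKM (SD, n = 3), and Ldha held 97.4% ± 0.373 of the pair with TWEAK and 97.2% ± 0.468 without. The lactate carriers Slc16a1 (MCT1) and Slc16a3 (MCT4) were at 17.1 against 17.2 FPKM and at 15.0 against 14.1 FPKM. Their obligate partner Bsg was at 416 and 411 FPKM. Of the 2 tested genes listed as partners of these carriers, 0 passed with group alone. With the trial as a block 1 of these 2 was lower, at a log2 difference of -0.24, beside 12.5% of all tested genes. The widest of the 4 lactate gene intervals was that of Ldhb, -0.33 to 0.30 on the log2 scale.

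The 4 PFKFB genes make and remove fructose 2,6-bisphosphate, the activator of phosphofructokinase. All were low and none passed with either fit: Pfkfb2 was at 3.35 against 3.81 FPKM, Pfkfb3 at 2.68 against 2.52 FPKM, Pfkfb4 at 2.94 against 3.06 FPKM and Pfkfb1 at 0.758 against 0.581 FPKM (TWEAK first). Pfkfb2 and Pfkfb3 overlap other annotated genes, and whether strand was used in counting is not given in the sources used here.

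**Figure D3:**
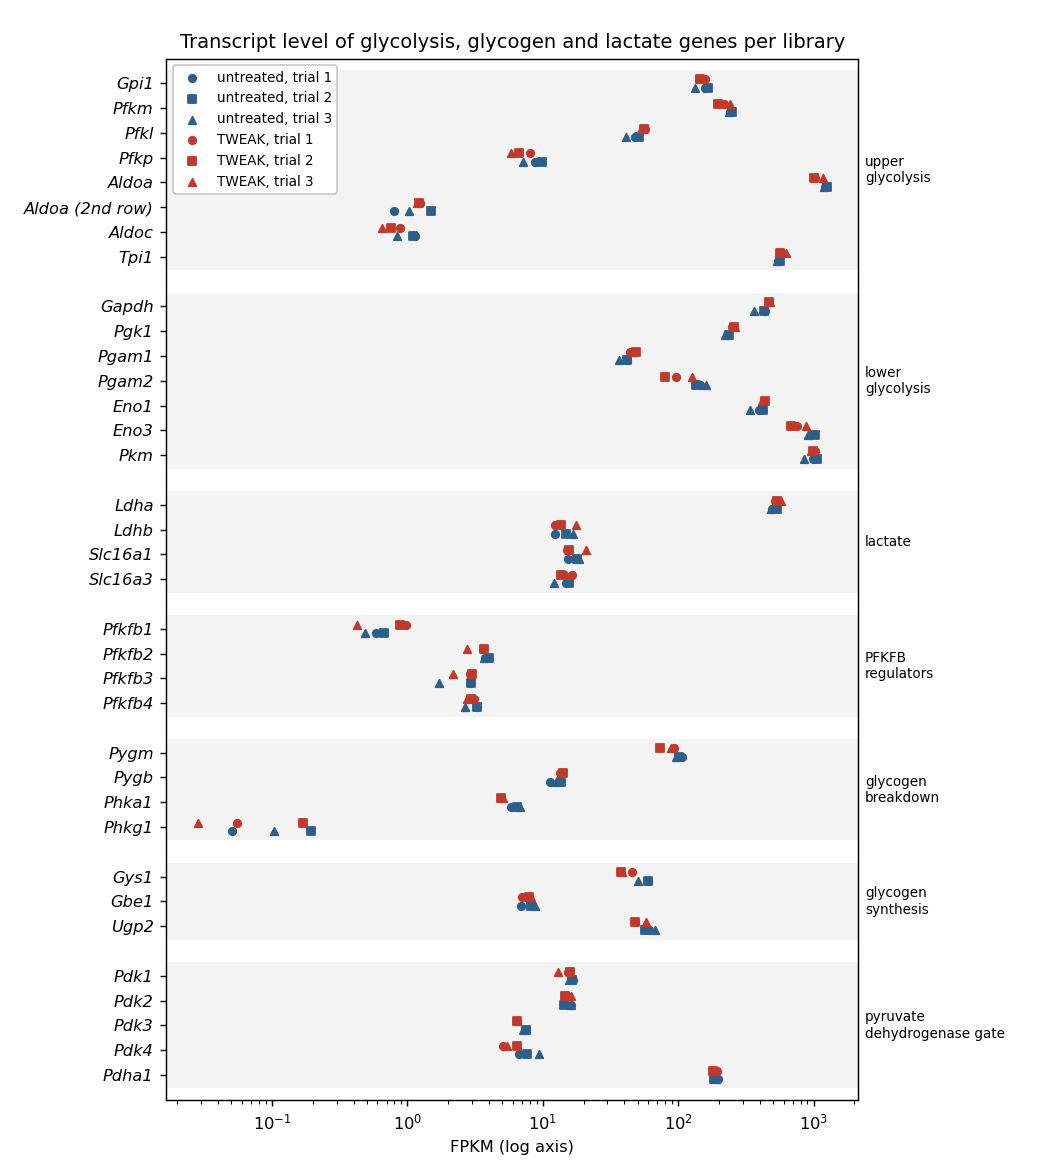
FPKM of each row of the gene set (horizontal log axis) in the 6 libraries, grouped by role (vertical axis), with colour for group and marker shape for trial. The rows span Phkg1, at under 0.2 FPKM in every library, to Aldoa, at 998 to 1245 FPKM, and most red and blue points of a row lie close together beside this range.

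Of the 3 genes of glycogen synthesis, 1 fell with group alone and 2 with the trial as a block. Among all tested genes 6.10% and 12.5% fell. Gys1 (GRCm39 chr7:45084268-45106043), muscle glycogen synthase, was at 45.5, 37.6 and 38.5 FPKM with TWEAK and at 59.7, 60.0 and 50.0 FPKM without. All 3 TWEAK libraries were below all untreated ones. The mean fell 1.40-fold, from 56.6 ± 5.70 to 40.5 ± 4.34 FPKM (SD, n = 3), with a log2 difference of -0.47 (standard error 0.10; limma adjusted p = 0.0128). Ugp2, which supplies the UDP-glucose that glycogen synthase uses, was at 48.3, 48.2 and 58.1 FPKM against 61.2, 57.2 and 66.8 FPKM. The Ugp2 groups overlapped, each trial was lower with TWEAK, and its log2 difference of -0.26 passed with the trial as a block (limma adjusted p = 0.00808) and not with group alone (0.092). The branching enzyme Gbe1 was at 7.68 and 7.89 FPKM and did not pass.

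On the side of glycogen breakdown, Phka1 (GRCm39 chrX:101557581-101687852) was at 4.93, 4.91 and 5.05 FPKM with TWEAK and at 5.77, 6.41 and 6.82 FPKM without. The TWEAK libraries were nearly equal and all lower. Phka1 fell 1.28-fold, with a log2 difference of -0.30 (standard error 0.08; limma adjusted p = 0.0329). The catalytic subunit gene Phkg1, at 4, 14 and 2 reads with TWEAK and 4, 15 and 10 reads without, was below the level needed for a test. Its groups overlapped at 0.0844 and 0.116 FPKM, and it shares its locus with another annotated gene. Of 22 rows of other glycogen genes, 16 were tested, 0 rose and 2 fell. Among them Phkb, the beta subunit of phosphorylase kinase, fell from 29.9 ± 2.88 to 24.0 ± 1.70 FPKM (SD, n = 3; limma adjusted p = 0.0414). With the trial as a block 4 of the 16 fell and 0 rose. Over all tested genes 6.10% fell with group alone, and 12.5% fell with the block.

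Among the genes that gate pyruvate entry into mitochondria, all 5 had log2 differences below 0 and none passed with group alone. Pdk4, the kinase induced by fasting in muscle, was at 5.06, 6.41 and 5.44 FPKM with TWEAK and 6.63, 7.59 and 9.42 FPKM without, with no overlap. Its log2 difference of -0.41 passed with the trial as a block (limma adjusted p = 0.00334) and not with group alone (0.0504). Pdk3 was at 6.45, 6.45 and 6.41 FPKM against 7.35, 7.57 and 7.16 FPKM, also without overlap, and did not pass with either fit (limma adjusted p = 0.122). Pdk1 was at 14.7 and 16.3 FPKM and Pdk2 at 15.2 and 15.5 FPKM. Pdha1, the catalytic subunit of the complex that these kinases phosphorylate, was at 184 and 189 FPKM. Pdk4 made up 13.4% ± 1.43 of the summed kinase FPKM with TWEAK and 16.7% ± 2.70 without (SD, n = 3).

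Counted by overlap alone, 8 of the 34 tested rows had every TWEAK library below every untreated one, and 4 had every TWEAK library above. Among all tested genes these shares were 15.9% and 20%. The rows below were Aldoa, Eno3, Gys1, Pdk3, Pdk4, Pgam2, Phka1 and Pygm, and those above were Gapdh, Pfkl, Pgam1 and Pgk1. The 35 rows together took 1.55% to 1.63% of the summed FPKM in the TWEAK libraries and 1.56% to 1.74% in the untreated ones.

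**Figure D4:**
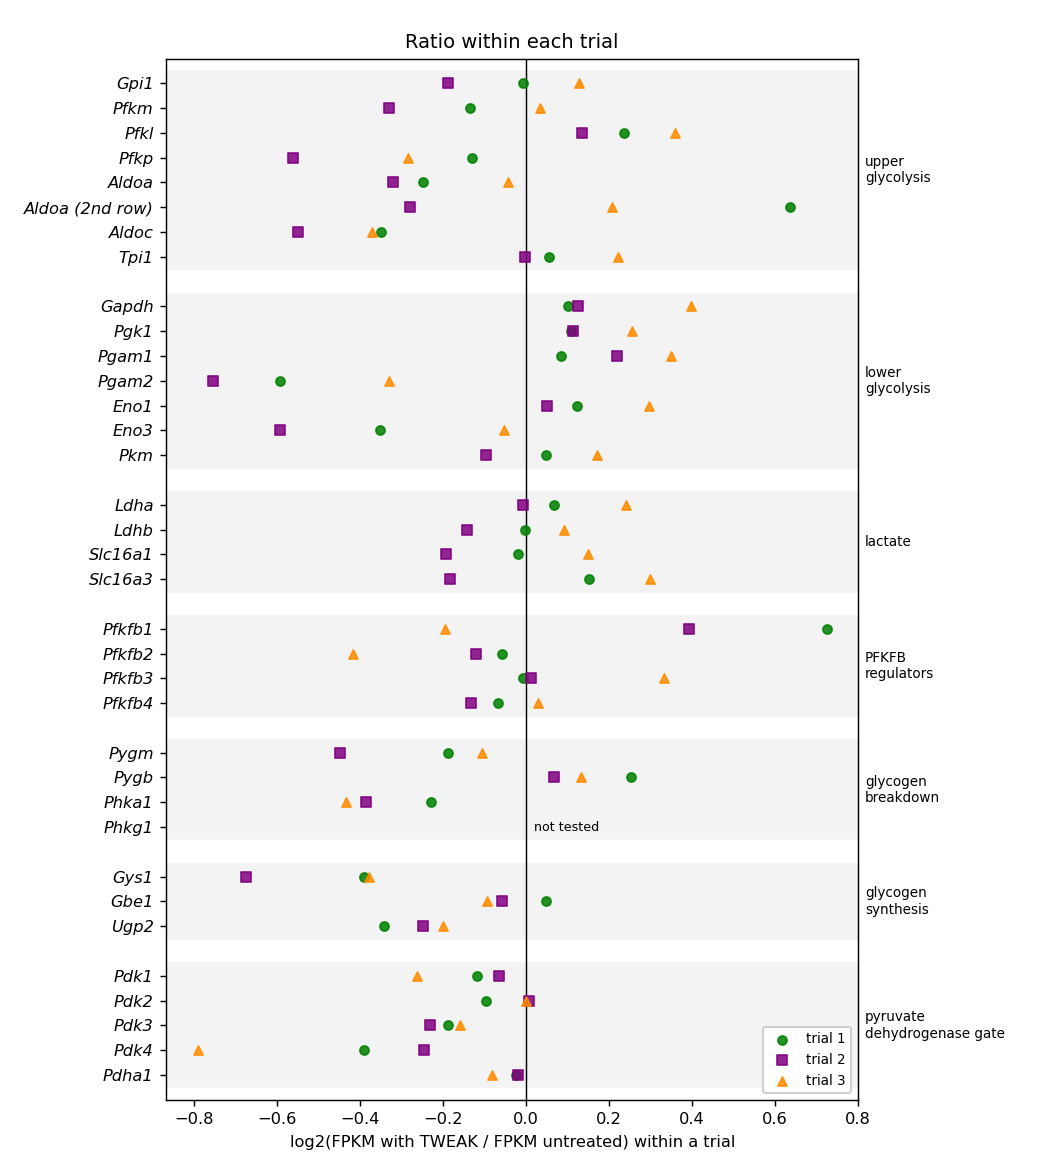
Log2 ratio of FPKM with TWEAK over FPKM untreated within trials 1, 2 and 3 (horizontal axis) for each tested row, grouped by role (vertical axis). Pgam2, Gys1 and Phka1 lie below 0 in all 3 trials, while rows such as Pkm, Ldhb and Slc16a3 have trials on both sides of 0.

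The 3 calls changed when libraries were left out of the fit with group alone, while their log2 differences stayed below 0. These ran from -0.42 to -0.56 for Gys1, -0.40 to -0.73 for Pgam2 and -0.25 to -0.35 for Phka1. With 1 library left out at a time, the number of tested rows that fell ranged from 0 to 6. Without TWEAK trial 2, which held the lowest Pgam2, Eno3 and Pygm, 0 fell (limma; 4 rows had an unadjusted p under 0.05), and without untreated trial 2, 0 fell (limma; 8 rows unadjusted). Without TWEAK trial 1, or without untreated trial 3, only Gys1 fell, without TWEAK trial 3 the number was 6, and without untreated trial 1 it was 3, with Pdk4 in place of Pgam2. Gys1 had an adjusted p of 0.00574 to 0.0596 across these limma fits, Pgam2 0.00383 to 0.109 and Phka1 0.0391 to 0.114. Both Gys1 and Pgam2 were lower within each trial, at log2 ratios of -0.39, -0.67 and -0.38 for Gys1 and -0.59, -0.76 and -0.33 for Pgam2.

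Glucose enters the pathway through transporters and hexokinases. Of 13 listed genes of these and related families 8 were tested, with 2 rising and 1 falling. With the trial as a block 3 rose and 1 fell. Over all 12770 tested genes 1147 rose and 779 fell, and with the block 15.4% rose and 12.5% fell. Transport itself was not measured. Slc2a6, a member of the transporter family, rose 3.69-fold, from 23.7 ± 2.84 to 87.5 ± 8.15 FPKM (SD, n = 3; limma adjusted p = 1.44e-05). The ADP-dependent glucokinase Adpgk rose from 6.79 to 8.59 FPKM (limma adjusted p = 0.0201). The insulin-responsive transporter Slc2a4 (GLUT4), low in these cells, fell from 0.945 ± 0.0982 to 0.409 ± 0.120 FPKM (limma adjusted p = 0.0132). The widespread transporter Slc2a1 (GLUT1) was at 31.1 ± 1.29 FPKM with TWEAK and 26.8 ± 4.10 FPKM without (SD, n = 3). It passed with the block (limma adjusted p = 0.034) and not with group alone (0.188). Hexokinases Hk1 and Hk2 did not pass, at 47.9 against 48.1 FPKM and at 27.0 against 28.9 FPKM. Of 4 tested further isozymes, 1 rose: Eno2, the neuronal enolase, from 19.9 to 25.2 FPKM (limma adjusted p = 0.0448).

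Of 20 tested genes at the branches of glycolysis 2 rose and 3 fell, and with the trial as a block 5 rose and 7 fell. Over all tested genes 1147 of 12770 rose and 779 fell, and with the block 15.4% rose and 12.5% fell. Aldose reductase Akr1b3 rose from 39.6 to 52.5 FPKM (limma adjusted p = 0.021) and the mitochondrial serine enzyme Shmt2 from 63.2 to 80.5 FPKM (limma adjusted p = 0.0329). The alanine aminotransferase Gpt2 fell from 45.0 to 31.9 FPKM (limma adjusted p = 0.00853), Gpd1l from 29.2 to 24.3 FPKM and sorbitol dehydrogenase Sord from 12.1 to 9.86 FPKM. Among 10 other genes of the pyruvate dehydrogenase complex and pyruvate carriers, limma called 0 in either direction with group alone (2 lower at an unadjusted p under 0.05) and 2 lower with the trial as a block.

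Of 16 tested regulators of glycolytic genes 2 rose and 2 fell, beside 1147 and 779 of all 12770 tested genes. Myc, a transcription factor that can drive glycolytic genes, rose 1.73-fold from 6.75 to 11.7 FPKM (limma adjusted p = 0.0009), and the prolyl hydroxylase Egln3 rose 1.51-fold from 51.0 to 77.3 FPKM (limma adjusted p = 0.00392). Prkaa2, a catalytic subunit of the energy sensor AMPK, fell 1.56-fold from 5.12 to 3.27 FPKM (limma adjusted p = 0.0077), and the HIF-1 inhibitor Hif1an fell from 30.4 to 25.7 FPKM (limma adjusted p = 0.0359). Hif1a itself was at 27.1 and 29.9 FPKM and did not pass (limma adjusted p = 0.209). Of 14 tested HIF-1 targets outside glycolysis, Adm and Ddit4 rose, P4ha1 fell and the other 11 did not pass.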

How the data were processed

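Poly(A)-selected RNA from 6 C2C12 libraries was sequenced. The submitters' processing notes name build GRCm39 and, without their roles, DESeq2 1.22.2, HTSeq 0.6.1p2, STAR 2.6.0c and Trim Galore 0.5.0. Settings, annotation release and strand use: not given in the sources used here. Per the file headers, the deposited table holds FPKM per library, and, for the authors' own comparison, p-values, a test statistic (a score), a mean normalized signal and a log2 fold change with an error. For 2337 genes that mean exceeds 0 although each of the 6 libraries is at 0. The comparison therefore included further libraries, not analysed here. Every one of the 126386 FPKM values above 0 was a whole number of reads within a relative tolerance of 1e-06 once gene length and a library factor were taken out. Gene length was itself derived from these values, so this holds by construction for a gene with reads in a single library. In 189 of 12770 tested genes the values left a common factor undetermined, and one was chosen. The number of columns without a sample was 0.

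The fit was limma 3.58.1 in R 4.3.3 on log2(FPKM + 1) with a trend, tested on simulated data, for rows with a mean FPKM of at least 0.5; p-values are two-sided. Shares were tested by exact permutation over the libraries in Python 3.11.15. Deviations from group means correlated at 0.473, 0.218 and 0.434 within trials 1, 2 and 3. On that ground, since the labels do not state it, trials were paired in the block fit, within-trial comparisons and sign flips. Calls of genes that rose or fell used group alone unless the block is named. The permutation test of the shares ignored the trial. Alternatives were pseudocounts, minima, scalings, limma-voom on the recovered reads, the block and leaving out libraries. Members and lists were chosen with earlier results of these data known. Named with values per library were genes past the threshold, isozymes of the 4 steps and genes below the minimum; Aldoa, Gapdh, Pgk1, Ldha, Ugp2, Pdk3 and Pdk4 were added after their values were seen. Of each other list, up to 3 genes past the threshold in each direction were named (1 such gene is not reported here), and Myog, Mymk, Des, Bsg, Eno1b, Slc2a1, Hk1, Hk2 and Hif1a beside them.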

Additional observations from a re-analysis of the deposited data

How the results depend on the processing

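Over all genes, limma called 1926 of 12770; with no minimum on FPKM it called 801, with the replicate block 3563, and with 1 library left out 844 to 2101 (lowest without TWEAK trial 2). Of the tested rows of the gene set, 3 passed. This became 0 with no minimum (limma; 11 at an unadjusted p under 0.05, with many more genes tested and an adjusted p of 0.0691 for Gys1), 7 with quantile normalization, 6 with libraries rescaled to the same summed FPKM, 10 with the replicate block, and 0 to 6 with 1 library left out. A pseudocount of 0.1 kept the number at 3, and a minimum of 2 FPKM and limma-voom on recovered reads each gave 4, with Pdk4 added to the same genes. The scalings moved the median difference of all genes to between -0.0104 and 0.0126. Of 439 alternative values of the 34 tested rows, 387 kept direction and side of the threshold, 20 newly passed, 14 no longer passed and 18 changed sign; the cause was not tested. The changes of sign were in 9 rows that did not pass, all with 1 library left out. Their log2 differences then ranged from -0.118 to 0.0432 for Gpi1, -0.0185 to 0.216 for the second Aldoa row (ENSMUSG00000114515.3), -0.0484 to 0.107 for Pkm, -0.159 to 0.0897 for Ldhb, -0.156 to 0.061 for Slc16a1, -0.0196 to 0.153 for Slc16a3, -0.102 to 0.178 for Pfkfb3, -0.119 to 0.0321 for Gbe1 and -0.0782 to 0.00584 for Pdk2. The 4 muscle-type shares stayed lower with TWEAK in every alternative run, with enolase at -8.22 points when Eno1b was added to Eno1, a choice made after seeing the data. For a row that did not pass, differences as large as the ends of its interval remain possible with 3 libraries a group.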
